A study of Mus with 6 samples.

Results

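Airn, an imprinted RNA antisense to Igf2r, is described here in the right substantia nigra pars compacta of mice that overexpress human α-synuclein carrying the A53T substitution. It is 1 of the 2282 names in a deposited table by gene name, taken by its name alone. That table is labelled as one of lncRNA genes, and also holds miRNA loci and pseudogenes. Ranks and shares given below are among these names, not among all genes. The AVE0991 group (3 samples) received 10 mg/kg AVE0991, and the model group (3 samples) received 0.9% saline, in both cases as daily intraperitoneal injections over 30 days. AVE0991 is a small-molecule agonist of Mas, the receptor encoded by Mas1. All 6 samples carry the human transgene, so no comparison with mice lacking it is made. The labels give no promoter for the transgene, no age and no sex, and do not state whether each sample is a separate animal, so the p-values reflect the spread among these samples, which may be technical.

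Airn is a well-studied imprinted long non-coding RNA. In mouse it is transcribed from the paternal chromosome only, starts inside Igf2r and runs antisense to it, is long, nuclear and mostly unspliced, and silences the paternal copy of Igf2r. Igf2r encodes the receptor that clears insulin-like growth factor 2 and sorts lysosomal enzymes. In placenta Airn also silences the neighbouring transporter genes Slc22a2 and Slc22a3. In cultured mouse brain cells, Airn and one-allele expression of Igf2r are known from glia and fibroblasts, whereas neurons use both copies of Igf2r and lack Airn. In RefSeq's annotation (GRCm38.p6), Airn lies on chromosome 17 and its gene overlaps Igf2r, Mas1 and the pseudogenes Gm16574, Gm7162 and Gm17592. None of these 5 genes has a row in the table by name, which is labelled as one of lncRNA genes. Strand handling was not given in the sources used here, and without strand, reads from Airn and from the genes it overlaps cannot be told apart.

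The table gives each name a mean normalized count (a count divided by a library factor) for each group, with a test statistic and its degrees of freedom. For Airn, exactly 1 set of whole counts per library returned these values. Libraries of each group are lettered a to c, and the letters are not the replicate numbers of the labels. The recovered libraries held 1791892 to 2386377 counts over the names solved, and the 6 totals of a separate table by identifier ran from 37036986 to 52029003. Over 1867 names, model library c lay nearer to the AVE0991 mean than model libraries a and b did, with root mean square log2 differences of 0.857 for c, 1.10 for a and 1.12 for b. Results are therefore also given without it.

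Airn fell with AVE0991. Its counts were 3138, 4331 and 3451 in AVE0991 libraries a to c, against 21790, 18651 and 12416 in model libraries a to c. After library scaling, the normalized counts were 3163, 4419 and 3747 with AVE0991, against 18486, 16692 and 11474 in the model group. All 3 AVE0991 libraries lay below all 3 model libraries, and the lowest model library was still 2.60 times the highest AVE0991 library. Means were 3776 ± 629 normalized counts with AVE0991 and 15550 ± 3643 in model samples (SD, n = 3 each). Counting error is small at this depth: for the lowest count, 3138, the exact 95% Poisson interval is 3029 to 3250, which covers counting error only. In bulk tissue, fewer cells that make Airn and less Airn per cell cannot be told apart.

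**Figure D1:**
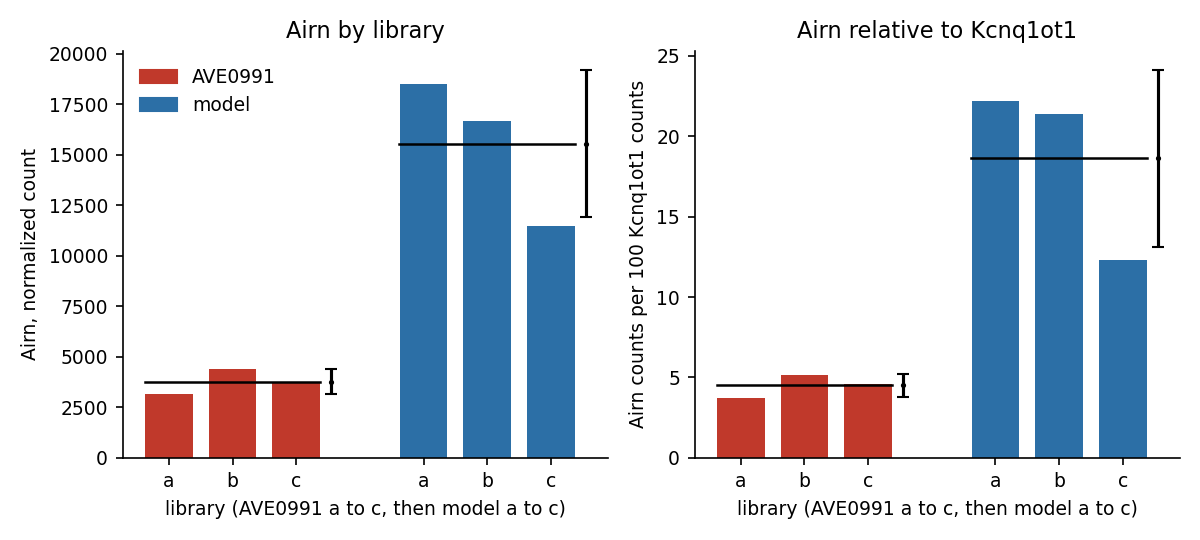
Airn in each of the 6 libraries, with AVE0991 libraries a to c on the left and model libraries a to c on the right of each panel; horizontal lines are group means and error bars are SD (n = 3). The left panel shows the normalized count and the right panel the Airn counts per 100 counts of Kcnq1ot1 in the same library; in both, every AVE0991 library lies below every model library and model library c is the lowest of its group.

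In a fit over all 1867 names tested, the log2 fold change of Airn was -1.99 ± 0.22 (SE), with an adjusted p of 0.00122 (edgeR quasi-likelihood test, Benjamini-Hochberg adjustment over all names). In the same fit, 8.3% of names were called lower (155 of 1867) and 7.61% were called higher (142). Non-overlapping groups with AVE0991 lower were also common, at 22.4% of the names tested. An exact two-sided permutation test over the 6 libraries gave p = 0.1 for Airn, the smallest p that 3 against 3 allows. The authors' deposited table lists for Airn a statistic of -5.52 on 2.12 degrees of freedom and an unadjusted p of 0.0275, at which level 18.8% of its names pass. Adjusted here over the 2247 names with a p, the authors' value became 0.259, so the call does not hold by that test. That table also gives an interval for the difference of the means, AVE0991 minus model, of -20481 to -3068 normalized counts.

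The spread within groups was wider in the model group, but with n = 3 each this difference in spread was not tested. The highest model library held 1.61 times the Airn of the lowest, and the highest AVE0991 library 1.40 times that of the lowest. On the log2 scale the SD was 0.24 with AVE0991 and 0.36 in the model group (n = 3 each). Model library c, the lowest of its group for Airn, is also the model library nearest to the AVE0991 group over all names. The part of library c in the result was not tested. Leaving it out gave a log2 fold change of -2.17 ± 0.16 (SE; edgeR, adjusted p = 0.000214). Because library c was the lowest model library for Airn, a larger fall without it follows from the choice. Leaving out any 1 of the 6 libraries kept the call, with log2 fold changes from -2.17 to -1.83 and adjusted p of at most 0.0114 (edgeR).

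**Figure D2:**
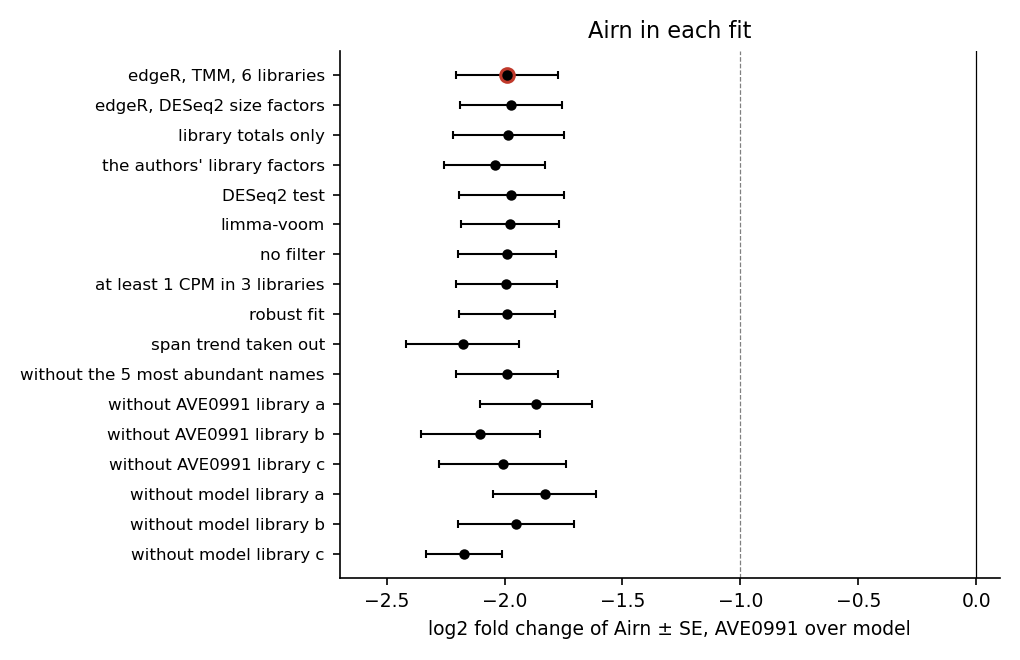
Log2 fold change of Airn, AVE0991 over model, with its SE as error bars, in the edgeR fit on 6 libraries (red ring, top row) and in 16 alternative fits; the dashed line marks a 2-fold fall and the solid line no change. All values lie between -2.18 and -1.83, on the lower side of the dashed line.

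Airn was among the more abundant names in both groups, by a level that is not per length. By the authors' deposited means it ranked 108 of 2282 names with AVE0991, 22 in the model group and 40 by the mean of both. Within single libraries, among the 2242 names with recovered counts, its rank was 124, 84 and 102 in AVE0991 libraries a to c, against 12, 14 and 26 in model libraries a to c. Every AVE0991 library therefore ranked it lower than every model library. Airn took 0.159%, 0.225% and 0.193% of the recovered counts in AVE0991 libraries a to c, against 0.921%, 0.837% and 0.520% in model libraries a to c. The recovered counts leave out 5 names, each with a deposited mean above that of Airn in both groups. These shares are therefore larger than shares of all counts, and the ranks within libraries skip those names. Over all names, the deposited means summed to 4338693 with AVE0991 and 5000607 in the model group.

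Its neighbours in this order differed little from it. With AVE0991, where Airn had a mean of 3776 ± 629 normalized counts, the names just above were Mirlet7d (3869 ± 809), 4930519K11Rik (3853 ± 543) and A330102I10Rik (3781 ± 250, SD, n = 3 each). Those just below were A930017M01Rik (3772 ± 320), H2bu1-ps (3695 ± 246) and Mirg (3686 ± 227). All 6 lay within 1 SD of Airn, so the order among them is not set by these data. In the model group, A330023F24Rik (18082 ± 581) and Mir5130 (16938 ± 2140) stood just above Airn (15550 ± 3643, SD, n = 3 each). Just below it were 5031425E22Rik (15146 ± 189), Gm20172 (14882 ± 1651) and 6330415B21Rik (14463 ± 453). These too lay within the SD of Airn, as did 1700064M15Rik, ranked 19 with 18371 ± 29378 normalized counts, whose own SD exceeded its mean.

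Per kilobase of annotated gene span, Airn had 31.8 ± 5.30 normalized counts with AVE0991 and 131 ± 30.7 in model samples (SD, n = 3 each). On that scale it ranked 960 of 2270 names with AVE0991, 566 in the model group and 671 by the mean of both. Kcnq1ot1, also a long, mostly unspliced imprinted antisense RNA, had 1006 ± 24.8 with AVE0991 and 1017 ± 92.6 in the model group per kilobase of its span. Spans come from the RefSeq gene models, and the length the authors counted over was not given in the sources used here.

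Of the 40 names with a mean of both groups at least that of Airn, 35 could be tested, and 5 were called (14.3%, against 15.9% of all names): Airn lower, and Dlx6os1, Miat, B230303A05Rik and 2210408F21Rik higher. Dlx6os1, an RNA antisense to the homeobox gene Dlx6 of forebrain interneurons, had the only larger change in that set, with a log2 fold change of 2.73 ± 0.36 (SE). Miat, a long non-coding RNA abundant in neurons, had 38198 ± 2145 normalized counts with AVE0991 and 20390 ± 7168 in model samples (SD, n = 3 each; log2 fold change 0.96 ± 0.22, SE). The clone-named B230303A05Rik and 2210408F21Rik had log2 fold changes of 0.84 ± 0.20 and 0.73 ± 0.16 (SE). The calls of Miat and B230303A05Rik were each lost in 5 of 16 alternative fits and that of 2210408F21Rik in 4 (adjusted p up to 0.110, 0.0996 and 0.0875, edgeR), all with a library left out. Airn and Dlx6os1 kept theirs in all 16. Among the 67 names whose mean lay within 2-fold of that of Airn, 7 were called lower and 6 higher (19.4% in all, against the same 15.9%), and Airn had the largest fall.

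**Figure D3:**
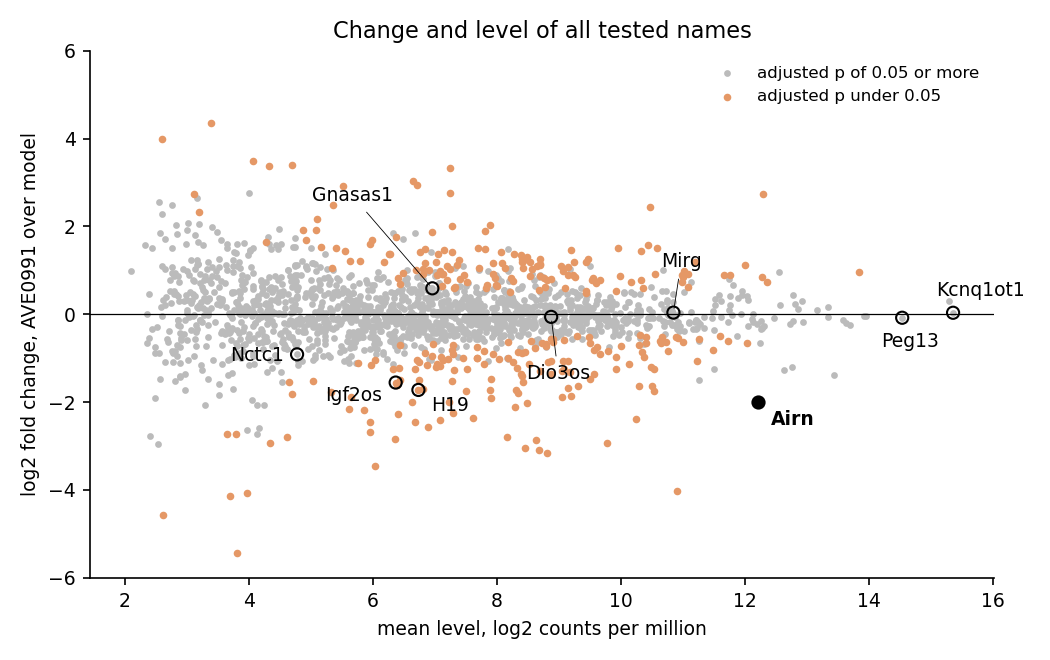
Log2 fold change, AVE0991 over model, against mean level in log2 CPM for the names tested, with adjusted p under 0.05 in orange (edgeR); 2 names with changes beyond 6 on the log2 scale lie outside the plotted range. Airn (filled) stands below the other names of its level at -1.99, while the imprinted RNAs Kcnq1ot1 and Peg13, further right, lie near 0.

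Among the 155 names called lower, Airn ranked 33 by log2 fold change and 14 by p. By the difference of the group means it ranked first of these 155: it fell by 11774 normalized counts, and the next name, Gm2694, fell by 6997. Names not called or not recovered are outside this ranking. Of those not recovered, larger falls in deposited means were seen for 4930509G22Rik (1719508 with AVE0991, 2166078 in model samples), 4930546C10Rik (112540, 234549) and Malat1 (55783, 116306). Meg3 and Norad, also not recovered, had higher deposited means with AVE0991. Airn made up 8.50% of the summed fall of the 155 names. These differences are in counts, not per length, and so favour abundant RNAs. Gm2694 had 271, 767 and 280 normalized counts with AVE0991, against 9358, 8453 and 4498 in the model group, with model library c again the lowest of its group.

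Ratios within a library do not depend on how libraries are scaled. For each 100 counts of Kcnq1ot1, the antisense RNA of another imprinted cluster, there were 3.73, 5.17 and 4.60 counts of Airn in AVE0991 libraries a to c, against 22.2, 21.4 and 12.3 in model libraries a to c. The groups did not overlap, and the mean was 4.50 ± 0.72 with AVE0991 and 18.6 ± 5.49 in model samples (SD, n = 3 each). Set against Peg13, a brain-expressed imprinted RNA, Airn gave 8.30 ± 1.50 per 100 counts with AVE0991, against 31.5 ± 9.20 in model libraries (SD, n = 3 each). Set against Mirg, an RNA of the Dlk1-Dio3 imprinted region, it gave 102 ± 10.8 per 100 counts with AVE0991, against 416 ± 20.2 in model libraries (SD, n = 3 each), the smallest spread relative to its mean among the 3 ratios in the model group. The mean log2 difference of these ratios, AVE0991 minus model, was -2.01 for Kcnq1ot1, -1.90 for Peg13 and -2.03 for Mirg, each with p = 0.1, the smallest that an exact two-sided permutation test allows with 3 libraries in each group. A ratio of this kind shows unequal change between 2 RNAs and does not show that either was constant. The 3 reference RNAs were chosen with earlier results of these data known. Their own log2 fold changes were 0.03 (Kcnq1ot1), -0.08 (Peg13) and 0.04 (Mirg). These ratios therefore restate the change of Airn and are not separate evidence for it.

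Airn was compared with other imprinted RNAs, with long RNAs counted apart from miRNA loci. Of 16 listed imprinted long non-coding RNAs, 10 had a row in the table and 9 could be tested; the other, Meg3, could not, because several sets of counts fitted its deposited values. Of these 9, Airn, H19 and Igf2os were lower and none was higher. That is 33.3% called, Airn included, against 15.9% of all names in either direction and 8.3% lower. H19 and Igf2os both lie on chromosome 7, as do Nctc1 and Kcnq1ot1, which were not called. The list was chosen with these calls known. The median log2 fold change of the 9, with Airn among them, was -0.08, against -0.02 over all names tested. H19, a growth-restraining RNA expressed from the maternal chromosome, had 60.5, 105 and 124 normalized counts with AVE0991, against 406, 267 and 320 in model libraries (log2 fold change -1.72 ± 0.31, SE; adjusted p = 0.0102, edgeR). Igf2os, antisense to Igf2, which encodes the growth factor that the Igf2r protein binds, had 57.4, 69.4 and 117 with AVE0991 and 241, 265 and 241 in the model group (-1.55 ± 0.30, SE; adjusted p = 0.0128, edgeR). In both, the groups did not overlap, at levels far below that of Airn. Of all names tested, 22.4% likewise did not overlap, with AVE0991 lower. The call of Igf2os was lost without AVE0991 library b and without model library b (adjusted p up to 0.0524, edgeR).

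Nctc1, which lies near H19, had 45.4, 30.6 and 32.6 normalized counts with AVE0991, against 72.1, 80.5 and 59.1 in the model group. Its groups did not overlap, as in 22.4% of the names tested with AVE0991 lower. Its log2 fold change of -0.91 ± 0.34 (SE) did not pass (adjusted p = 0.103, edgeR). Gnasas1, an RNA antisense to Gnas that was listed under its older name Nespas, had 319, 299 and 264 normalized counts with AVE0991, against 168, 223 and 216 in the model group. All 3 AVE0991 libraries lay above all 3 model libraries, as they did for 16.5% of the names tested. Its log2 fold change of 0.59 ± 0.19 (SE) did not pass (adjusted p = 0.0699, edgeR). Of the 16 alternative fits, it passed with DESeq2 alone (adjusted p = 0.0375, against up to 0.209 in the others). Kcnq1ot1, Peg13, Dio3os and Mirg had log2 fold changes within 0.1 of 0. Kcnq1ot1, which silences genes around Kcnq1, had 0.03 ± 0.10 (SE). Peg13 had -0.08 ± 0.10, Dio3os, antisense to the thyroid hormone deiodinase gene Dio3, had -0.06 ± 0.18, and Mirg had 0.04 ± 0.17 (SE). Meg3, of the same region as Mirg, was not tested, and the authors' deposited table gives it a log2 fold change of 0.03.

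**Figure D4:**
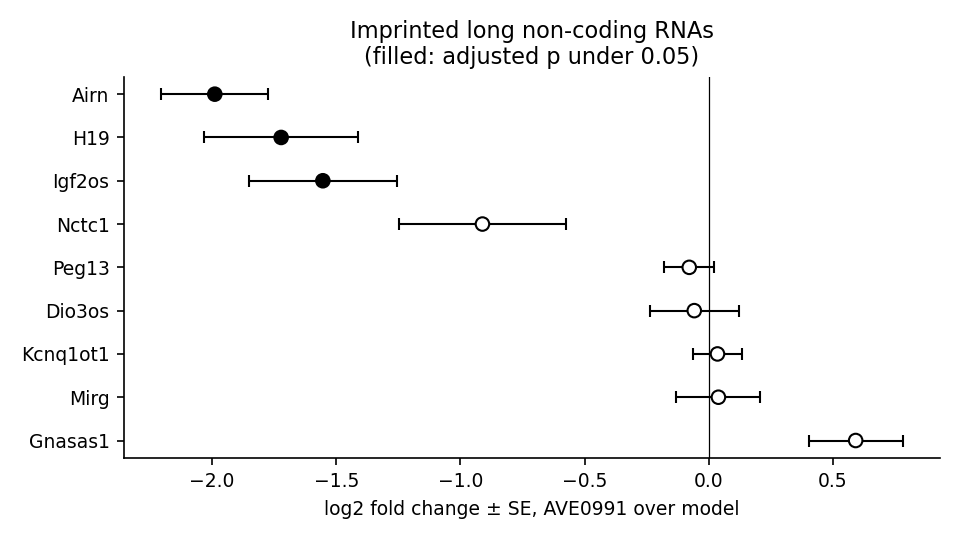
Log2 fold change, AVE0991 over model, of the 9 tested imprinted long non-coding RNAs, with SE as error bars; filled points have an adjusted p under 0.05 (edgeR). Airn, H19 and Igf2os lie between -1.99 and -1.55, Peg13, Dio3os, Kcnq1ot1 and Mirg lie within 0.1 of 0, and Gnasas1 lies at 0.59.

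Within the list, 5 tested RNAs run antisense to an imprinted protein-coding gene. Airn and Igf2os were lower, and Kcnq1ot1, Dio3os and Gnasas1 did not pass. With Airn included, 2 of 5 were called, against 15.9% of all names in either direction and 8.3% lower. Of 4 imprinted miRNA loci tested, Mir376c, Mir379, Mir495 and Mir667, none passed, and their log2 fold changes ran from -0.16 for Mir376c to 0.07 for Mir667. Of the listed genes of the Igf2r cluster, Airn alone was analysed here; Igf2r, Mas1, Slc22a2, Slc22a3 and Plg have no row in the table. None of the 12 listed genes of the angiotensin system has a row either. The table is labelled as one of lncRNA genes, so a missing row says nothing about the level of a protein-coding gene. Neither the genes that Airn overlaps nor the receptor gene of the drug was analysed here.

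None of the tested names nearest to Airn on chromosome 17 passed the test. Genes without a tested row, such as Igf2r and Mas1, are skipped in this order, and no distances are given. The nearest in RefSeq order, chosen after their values could be seen, were A230009B12Rik, 4732491K20Rik and C030013G03Rik before Airn, and 2700054A10Rik, Smok4a and 4930474M22Rik after it. Their log2 fold changes were -0.08 ± 0.14, -0.36 ± 0.15 and 1.00 ± 0.55 before Airn, and -0.49 ± 0.16, -0.37 ± 0.28 and 1.82 ± 0.67 after it (SE). Their adjusted p ran from 0.0781 to 0.724 (edgeR). Over the whole chromosome, 5 of 80 tested names were lower, Airn among them, and 8 were higher, with a median log2 fold change of -0.02. The share called on the chromosome, 16.2%, was near the 15.9% of all names.

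Airn is one of the longest annotated genes tested, ranking 50 of 1857 by RefSeq span. Of the 186 names with the longest spans (at or above the 0.9 quantile), 14 were lower, 24 were higher and 148 did not pass, with a median log2 fold change of 0.17; 20.4% were called, against 15.9% of all names. After removal of the span trend from each library, 20 of these names were lower and 17 higher, against 143 lower and 111 higher over all names in that fit. Airn had the 4th largest fall of the 186, and its log2 fold change without that trend was -2.18 ± 0.24 (SE). The median of the 186 was thus above that of all names tested (-0.02), while Airn was lower.

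Some RNAs followed Airn across the 6 libraries more closely than the rest. Likeness was the root mean square difference of log2(normalized count + 1) over the 6 libraries, after centring each name on its own mean. The 5 nearest of 1866 names were Mir3081 (0.102), Gm20743 (0.140), Mir6386 (0.152), Tmem132cos (0.154) and Gm20751 (0.165), against a median of 1.07 over all names compared. Mir3081, a miRNA locus, had 425, 612 and 459 normalized counts with AVE0991, and 2055, 2091 and 1466 in the model group. Tmem132cos, antisense to Tmem132c, had 218, 247 and 229 with AVE0991, and 1167, 1283 and 665 in the model group. Gm20751, the most abundant of the 5, had 1273, 1421 and 1329 with AVE0991, and 5204, 5061 and 3702 in the model group. In each of the 5, model library c was the lowest model library, as it was for Airn. Within a distance of 0.25 lay 12 names, 8 listed by RefSeq as lncRNA and 4 as miRNA, all called lower. Since likeness was measured on the same libraries as the group difference, that count and the shared low model library c follow from the choice.

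**Figure D5:**
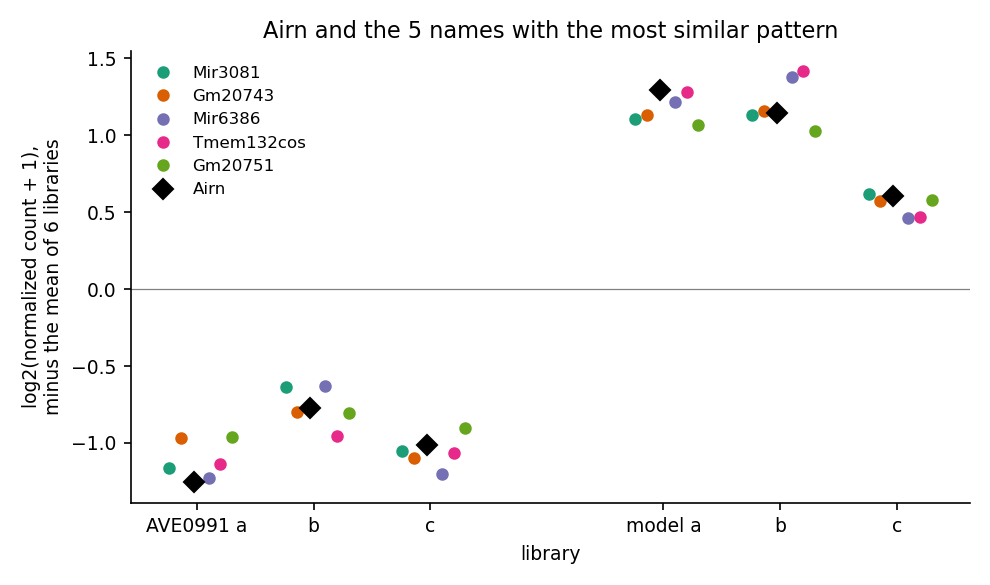
Log2(normalized count + 1) minus the mean of the 6 libraries for Airn (black diamonds) and the 5 names nearest to it (coloured points), with AVE0991 libraries a to c on the left and model libraries a to c on the right; points of 1 library are spread sideways for legibility. All 6 RNAs lie below 0 in every AVE0991 library and above 0 in every model library, and lowest within the model group in library c. The 5 names were chosen for this likeness.

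Markers of cell types and brain regions among long non-coding RNAs are given beside this result, and their part in it was not tested. Among neuronal RNAs, 3 of 7 listed could be tested (Miat, Mirg and Peg13, of which Mirg and Peg13 are also on the imprinted list), and their summed normalized counts ran from 86050 to 89809 with AVE0991 and from 67163 to 84409 in the model group. Without Peg13 the sums, then mostly Miat, ran from 39915 to 43920 with AVE0991 and from 19858 to 31551 in the model group. Of the 3, Miat alone was called, higher (33.3%, against 15.9% of all names). Among glial RNAs, 3 of 4 listed could be tested (Sox2ot, Neat1 and 9630013A20Rik), and none passed. The glial sums overlapped, at 16091 to 31897 with AVE0991, against 20722 to 25342 in model libraries. Without Neat1 they also overlapped, at 8284.2 to 12487.5 with AVE0991, against 10249.1 to 11775.7 in model libraries. Sox2ot, a marker of neural stem and glial cells, had a log2 fold change of -0.17 ± 0.18 (SE). 9630013A20Rik, an RNA of the oligodendrocyte lineage, had 0.60 ± 0.18 (SE; adjusted p = 0.0546, edgeR), and Neat1, an abundant nuclear RNA, had 0.22 ± 0.31 (SE; adjusted p = 0.675, edgeR).

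Some RNAs of other brain regions also differed between the groups. Sums over the forebrain RNAs Dlx6os1, Emx2os and Six3os1 ran from 15148 to 20572 with AVE0991, against 1900 to 4756 in model libraries, and without Dlx6os1 from 594 to 769 with AVE0991 and from 334 to 465 in the model group. Dlx6os1 and Emx2os were higher (66.7% of the list, against 15.9% of all names called), and Six3os1 did not pass (adjusted p = 0.417, edgeR). The call of Emx2os was lost in 6 of 16 alternative fits. Sums over 6 hindbrain and spinal Hox RNAs overlapped, at 60.8 to 249 with AVE0991, against 215 to 369 in model libraries. Of these 6, Hotairm1 alone was called, lower (16.7%, near the 15.9% of all names). That call was lost in 4 of 16 alternative fits, each on 5 libraries, where its largest adjusted p was 0.0929 (edgeR). Any difference in dissection between the groups cannot be told apart from the treatment here. The protein-coding markers of dopaminergic neurons were not analysed here.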

How the data were processed

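RNA was measured in 3 AVE0991 and 3 model samples, with groups taken from the titles. Reads were checked with FastQC 0.11.8 and trimmed with fastp 0.19.5, per the labels' protocols. The submitters' processing notes name the build mm9, STAR (2.7.7a) and DESeq2 (1.10.1). How reads were counted, with which annotation and strand setting, and how RNAs were named, was not given in the sources used here. RefSeq's assembly differs, so no coordinates are given; 2270 of 2282 names matched a RefSeq symbol, and 1 listed RNA, Nespas, was matched as Gnasas1 by RefSeq synonym.

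The authors deposited whole-number counts per identifier, used here for depth only, since no file pairs identifiers with names. The authors' deposited table by name gives per group a mean signal (counts divided by library factors), the statistic and other test scores, an unadjusted p-value, a fold ratio and its log2. That ratio adds 1 to both means.

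Counts per library were recovered from means, statistic and degrees of freedom (relative tolerances 5e-10 on the summed value, plus 2e-09 in absolute terms, and 1e-07 on the variance); a single set was found for 2242 of 2247 names, and 5 were not recovered and not tested: 4930509G22Rik, 4930546C10Rik, Malat1, Meg3 and Norad. A further 35 names were 0 throughout. Library letters follow falling factors. edgeR 4.0.16 (quasi-likelihood, TMM, filterByExpr, R 4.3.3) tested the counts, with the SE of a log2 fold change taken from its F statistic. Both steps were tested on simulated data. Alternatives used DESeq2 1.42.0, limma 3.58.1 (voom), other scalings and filters, and each library left out.

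Named genes were Airn, tested imprinted long RNAs, names ranked next to Airn, the 5 nearest by pattern (mean log2 CPM of at least 1) and called names at least as abundant. Members and lists were chosen with earlier results of these data known, and other names after their values were seen. No table holding the sequence of Airn was used here.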

Additional observations from a re-analysis of the deposited data

How the results depend on the processing

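Airn was lower and past the threshold in all 16 alternative fits: 10 with another scaling, filter or test gave log2 fold changes from -2.18 to -1.97 (adjusted p at most 0.00135), and 6 with 1 library left out gave -2.17 to -1.83 (adjusted p at most 0.0114). The exact two-sided permutation test gave p = 0.1, the smallest that 3 against 3 allows, so it could not pass. Of the tests that could pass, the exception was the authors' deposited test, which estimates the spread from 3 values per group for each name alone. Its log2 fold change of -2.04 had an adjusted p of 0.259. By that test 0 of the 2247 names, 0 of the imprinted and 0 of the long-span names passed; 423 names had an unadjusted p under 0.05. The number of names changed, 297 in the edgeR fit, was 183 with a 2-fold minimum, 412 with DESeq2, and 89 to 416 with a library left out. Leaving out AVE0991 libraries a to c in turn gave 141, 143 and 144, and leaving out model libraries a to c gave 100, 89 and 416. Of the long-span names, 38 changed, 22 with a 2-fold minimum and 11 to 52 with a library left out. The imprinted count of 3 was 4 with DESeq2, which added Gnasas1 as higher, 2 to 3 with a library left out, and 3 with the miRNA loci added, an alternative chosen after seeing the data. The rank of Airn by level, 40 over both groups, was 108 in the AVE0991 group and 22 in the model group; it was 124 and 102 in AVE0991 libraries a and c, and per kilobase of span 671 over both groups, 960 with AVE0991 and 566 in the model group. No paired analysis was possible because the recovered libraries carry no replicate number. Depth does not limit the result for Airn, whose lowest count was 3138.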
